A study of Mus musculus with 15 samples.

Results

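Valve endothelial cells, the cells that line the leaflets of the heart valves, were described in single-cell transcriptomes of mouse hearts at stage E14.5. Of 50899 cells with at least 300 detected genes, 701 were taken as valve endothelial. Such a cell had under 2% of its UMIs (unique molecular identifiers, which count captured RNA molecules) from the cardiomyocyte genes Actc1, Tnnt2, Tnni1, Tnnc1, Myl4, Myl7 and Ttn. It had at least 2 UMIs summed over the endothelial genes Pecam1, Cdh5, Emcn, Egfl7 and Eng. It had at least 2 UMIs of Hapln1 and Edn1 together, and more of these than of Npr3, Ednrb, Klhl4 and Gpr126 together and than of Fabp4, Aplnr, Cd36 and Apln together. With those other gene groups in the lead, the same steps gave 4649 endocardial cells (Npr3, Ednrb, Klhl4, Gpr126) and 1072 coronary endothelial cells (Fabp4, Aplnr, Cd36, Apln). Of the 8207 cells past the endothelial step 1785 fell into none of these groups. The levels of the gate genes chose the cells, so they are given as a description and were not tested between groups of cells.

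The 15 Drop-seq libraries were made from whole hearts on the C57BL6/N background. The 8 knockout (KO) libraries came from embryos homozygous for a targeted Adamts19 allele and the 7 wild-type (WT) libraries from embryos of the same age without it. KO replicates 5 to 8 carried the allele labelled tm4b (litter 7) and KO replicates 1 to 4 the allele labelled tm4a (litters 5 and 6). The WT libraries came from litters 1 to 4, so litter and genotype cannot be told apart. Per the labels, 1 flow cell held all KO libraries and, of the WT libraries, replicate 5 alone. The sources used here do not say which part of Adamts19 is deleted, what drives the reporter or how many embryos went into a library. Libraries held 5477109 to 11340443 UMIs in 2783 to 4914 barcodes, and their valve endothelial cells summed to between 65601 and 214949 UMIs.

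The endocardium, the endothelium that lines the heart chambers, continues onto the valve leaflets. Earlier in development some of its cells become valve mesenchyme, a change called endothelial-to-mesenchymal transition (EndMT) that Notch and BMP signals promote. Flowing blood acts on endothelium as shear stress, which induces the transcription factors KLF2 and KLF4. Adamts19 encodes a secreted metalloprotease. Hapln1 encodes a link protein that ties the proteoglycan versican to hyaluronan in the cushion matrix, and Edn1 encodes endothelin 1, a peptide made by endothelium.

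Each library gave 31 to 59 valve endothelial cells. The number was 59, 55, 32, 44, 56, 52, 58 and 47 in KO replicates 1 to 8, and 33, 31, 48, 45, 44, 39 and 58 in WT replicates 1 to 7. A UMI of Pecam1, which encodes a junction protein, was present in 75% of the cells, of Cdh5 (VE-cadherin) in 64.2%, of Eng (endoglin) in 70%, of Egfl7 in 65.5% and of Emcn (endomucin) in 25%. The median cell held 2769 UMIs, against 2081 in endocardial and 2122 in coronary endothelial cells. A rule that asks for 2 UMIs finds more cells where depth is high. Levels are given as CPM, UMI counts scaled by the total of a group of cells in a library. This scaling does not undo the effect of depth on which cells were chosen. Cells just inside the limit, with 2 UMIs of Hapln1 and Edn1 together, numbered 172 and held 198 CPM of Prox1, 344 CPM of Klf4 and 701 CPM of Hbegf when pooled, with 958 CPM of Vcan and 457 CPM of Fbln5. Cells just outside, with 1 UMI, numbered 217 and held 140.3 CPM of Prox1, 248 CPM of Klf4 and 572 CPM of Hbegf, with 1215 CPM of Vcan and 585 CPM of Fbln5. The first 3 of these genes were higher just inside the limit and the other two just outside it. A barcode sequence that another library also kept occurred in 4 valve endothelial cells, and 0 were valve endothelial in both libraries.

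RNA of mesenchymal marker genes (Col1a1, Col1a2, Col3a1, Postn, Dcn and Lum) was plentiful in the valve endothelial cells. In 40.9% of these cells (287 cells) the UMIs of those marker genes exceeded those of the 5 endothelial genes. The share was 12.5% in endocardial and 5.13% in coronary endothelial cells. Within valve endothelial cells it ran by library from 18.2% to 57.1% in KO and from 37.8% to 58.3% in WT. The 12 valve interstitial markers summed to 3357 to 9180.5 CPM in valve endothelial cells over the 15 libraries, against 1553 to 3382 CPM in endocardial and 278 to 1804 CPM in coronary endothelial cells, and none was at 0. The 8 fibroblast markers summed to 1781 to 6444 CPM, against 929.5 to 2763 CPM in endocardial cells. Epicardial markers summed to at most 65.2 CPM with Muc16 at 0, macrophage markers to at most 398 CPM and platelet markers to at most 105 CPM with Ppbp at 0. The neural crest marker Sox10 was at 0. The 7 mural markers summed to 172 to 598 CPM. The 7 lymphatic markers, which include Prox1, summed to 155 to 439 CPM, against 143 to 256 CPM in endocardial cells, and of them Ccl21a alone was at 0. Scrublet called 128 of all kept cells doublets (0.251%, under 0.5% in 14 of 15 libraries), so it did not work as a caller here, and doublets were kept. The part of the mesenchymal RNA in the results was not tested beyond the values without these mesenchyme-rich cells that are given below.

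The UMIs of Hapln1 and Edn1 were spread unevenly over the cells. Of the 701 cells, 203 held Edn1 without Hapln1, 319 held Hapln1 without Edn1 and 179 held both. Edn1 led in 269 cells, Hapln1 in 402, and 30 were tied. The rule lets a cell pass on either gene, and at so few UMIs per cell a count of 0 does not show that a gene is off. In valve endothelial cells Hapln1 had 608, 992 and 1348 CPM as lowest, median and highest value over the libraries, against 38.6, 69.4 and 85.5 CPM in endocardial cells. Edn1 had 361, 749 and 1409 CPM in valve endothelial cells, against 81.2, 141 and 197 CPM in endocardial cells. As the background of detection, 11.1% of endocardial and 8.12% of coronary endothelial cells held a UMI of Hapln1, and 19.4% and 12% a UMI of Edn1. In valve endothelial cells these shares, which the rule sets, were 71% and 54.5%.

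**Figure D1:**
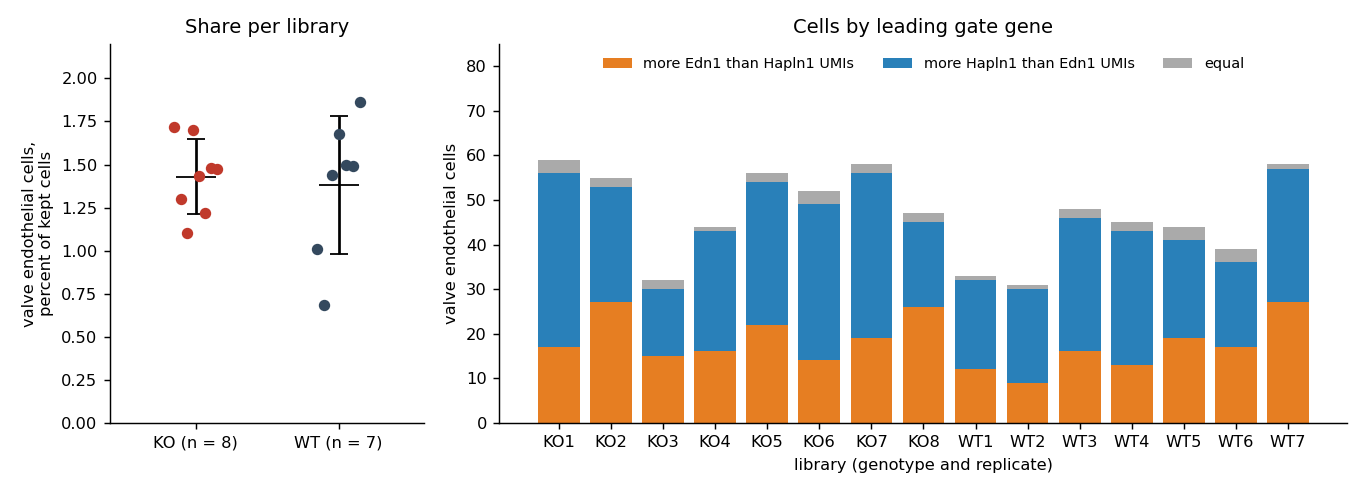
Left: valve endothelial cells as a percent of kept cells in each library with mean and SD; KO libraries lie between 1.10% and 1.72% and WT libraries between 0.685% and 1.86%, so they overlap. Right: the number of valve endothelial cells in each library, stacked by whether Edn1 or Hapln1 had more UMIs or they were tied.

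With only 1 of the pair in the rule, the other gene had not chosen the cells on the valve side. Gated on Hapln1 alone, 421 cells had 200.4 ± 126 CPM of Edn1, against 186 ± 60.5 CPM in endocardial cells (mean ± SD, n = 15 libraries). The log2 fold change of 0.13 ± 0.19 (SE) did not pass edgeR's quasi-likelihood test (Benjamini-Hochberg adjusted p = 0.659), and Edn1 was higher in 9 of 15 libraries. Against coronary endothelial cells (132 ± 78 CPM) the difference was 0.66 ± 0.22 (adjusted p = 0.0198, higher in 11 of 15). Gated on Edn1 alone, 292 cells had 324 ± 203 CPM of Hapln1, against 111 ± 25.2 CPM in endocardial cells. That difference, 1.49 ± 0.18, passed (adjusted p = 1.01e-08) and was positive in 12 of 15 libraries.

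The promoter of Edn1 is shown because this gene selects one side of the valve endothelial cells described further on. The 250 bases before its start lie at chr13:42301226-42301475 on the plus strand (RefSeq, GRCm38.p6). None of its letters are in capitals, since the motif searched below is not in this window.
Edn1: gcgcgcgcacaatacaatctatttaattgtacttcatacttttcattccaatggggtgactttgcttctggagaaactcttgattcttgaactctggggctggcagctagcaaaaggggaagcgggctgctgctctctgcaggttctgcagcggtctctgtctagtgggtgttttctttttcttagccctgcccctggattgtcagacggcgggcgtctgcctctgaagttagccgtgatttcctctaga

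Against endocardial cells, valve endothelial cells held more RNA of Pthlh, Dkk2, Cyp26b1, Hey2, Vcan and Hbegf, and less of Cdkn1c, Tmem100 and Dlk1. Of 5421 tested genes 1638 passed (30.2%), of which 866 were higher (16%) and 772 lower (14.2%) at an adjusted p under 0.05, with library as a block and the gate genes left out. The 12 higher and 12 lower genes named by size here went the same way in all 15 libraries, as did 171 genes upward (3.15%) and 238 downward (4.39%). Some genes below had no overlap between the groups over all libraries, and how many tested genes did so was not counted. In these sums, fewer cells of a type and less RNA per cell cannot be told apart for any second cell type that the gate may hold.

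The largest positive difference among the named genes was that of Pthlh, which encodes parathyroid hormone-related protein. Pthlh had 28.8, 168 and 679 CPM as lowest, median and highest value in valve endothelial cells, against 0, 6.53 and 17.6 CPM in endocardial cells, and the groups did not overlap (log2 fold change 5.06 ± 0.23). Dkk2, a secreted modulator of Wnt signalling, averaged 99.5 ± 55 CPM in valve endothelial and 3.31 ± 3.5 CPM in endocardial cells (4.75 ± 0.26). Cyp26b1, which degrades retinoic acid, averaged 99.6 ± 55 CPM in valve endothelial and 4.0 ± 2.67 CPM in endocardial cells (4.61 ± 0.24). Other secreted or signalling products were those of Bmp4, a BMP ligand (3.61 ± 0.23), and Enpp2, which makes lysophosphatidic acid (3.67 ± 0.20). The elastic fibre genes Fbln5 (fibulin 5) and Eln (elastin) differed by 3.58 ± 0.27 and 3.55 ± 0.25. Prnp, the prion protein gene, averaged 553 ± 315 CPM in valve endothelial and 41.7 ± 9.47 CPM in endocardial cells (3.64 ± 0.18). The remaining higher genes were Stmn2, a microtubule regulator (3.77 ± 0.21), the stress-response gene Nupr1 (3.69 ± 0.23), Pi16 (3.58 ± 0.23) and Ccdc141 (3.40 ± 0.16). Fbln5 did not pass when the valve side was gated on Hapln1 alone (0.53). Some of the others were not tested in all 11 other settings, where they fell under the filter on low counts. Enpp2 was tested in 7, Bmp4 and Eln in 8, Pthlh, Dkk2, Cyp26b1 and Nupr1 in 9 and Pi16 in 10. Each was called wherever it was tested.

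Cdkn1c, which encodes the cell cycle inhibitor p57, was the most abundant of the lower genes named here. It had 99.7, 265 and 1174 CPM in valve endothelial cells, against 2226, 4416 and 7045 CPM in endocardial cells, without overlap (-3.69 ± 0.15). Tmem100, an endothelial gene downstream of BMP signalling through ALK1, averaged 15 ± 10.4 CPM in valve endothelial and 196 ± 45.3 CPM in endocardial cells (-3.63 ± 0.19). Dlk1, whose product resembles Notch ligands, averaged 34.9 ± 40.5 CPM in valve endothelial and 367 ± 82.6 CPM in endocardial cells (-3.31 ± 0.20). Also lower were the peptidase gene Dpp4 (-3.09 ± 0.21), the lipase gene Pla2g7 (-3.26 ± 0.19), the desmosomal cadherin gene Dsg2 (-3.29 ± 0.28) and the homeobox gene Irx5 (-2.87 ± 0.33). The list ended with Slc26a10 (-4.21 ± 0.32), Mndal (-3.85 ± 0.33), Cped1 (-3.33 ± 0.28), Ccdc3 (-3.03 ± 0.25) and Ggt5 (-3.01 ± 0.24).

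Shear-response genes were mixed, with Klf4 higher and Klf2 short of the threshold. Of 17 listed genes 14 passed the filter on low counts. Of these 7 were higher and 4 lower, beside 16% and 14.2% of all tested genes. The median log2 fold change was 0.27 against 0.017 over all tested genes. Klf4 had 166, 499 and 893 CPM in valve endothelial cells, against 51.3, 186 and 235 CPM in endocardial cells. The ranges overlap at their ends, but within each of 15 libraries valve endothelial cells held more (1.52 ± 0.11, adjusted p = 5.32e-13). Klf2 had 178, 549 and 883 CPM in valve endothelial cells, against 273, 397 and 897 CPM in endocardial cells. These ranges overlap almost throughout, and Klf2 was higher in 11 of 15 libraries (0.20 ± 0.092, adjusted p = 0.0969). Without the mesenchyme-rich cells its log2 fold change was 0.54 and passed. Wnt9b, a flow-responsive Wnt ligand, was under the filter, with 0, 28.1 and 114 CPM as lowest, median and highest value in valve endothelial cells, against 0, 1.04 and 9.0 CPM in endocardial cells.

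The matricellular genes Cyr61 (CCN1) and Ctgf (CCN2), both YAP targets, were higher. Cyr61 had 647, 1308 and 1939 CPM in valve endothelial cells, against 83.2, 190.3 and 543 CPM in endocardial cells, without overlap (2.60 ± 0.14, adjusted p = 2.39e-16), and Ctgf differed by 1.73 ± 0.22. Thbd, which encodes the anticoagulant receptor thrombomodulin, averaged 131 ± 58 CPM in valve endothelial and 62.8 ± 15.4 CPM in endocardial cells (1.07 ± 0.17). Heg1, a receptor of the CCM pathway, and Slc9a3r2 were higher (0.65 ± 0.10 and 0.87 ± 0.13), the second of them not when gated on Edn1 alone. Cav1 (caveolin 1) was higher (0.34 ± 0.10), but its sign turned when the valve side was gated on Hapln1 alone (-0.47), and it did not pass in WT libraries alone. Lower were the mechanosensitive channel gene Piezo1 (-0.45 ± 0.13), the angiopoietin receptor gene Tek (-0.40 ± 0.09) and the oxidative stress genes Nfe2l2 (-0.28 ± 0.095) and Hmox1 (-0.62 ± 0.19). None of these 4 passed without the mesenchyme-rich cells, and Tek was at 0.035 with the valve side gated on Edn1 alone. Nos3, endothelial nitric oxide synthase, averaged 163 ± 57.4 CPM in valve endothelial and 161 ± 28.7 CPM in endocardial cells and did not pass (0.014 ± 0.11), nor did Pkd2, a cilium-associated channel gene (0.17 ± 0.17).

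**Figure D2:**
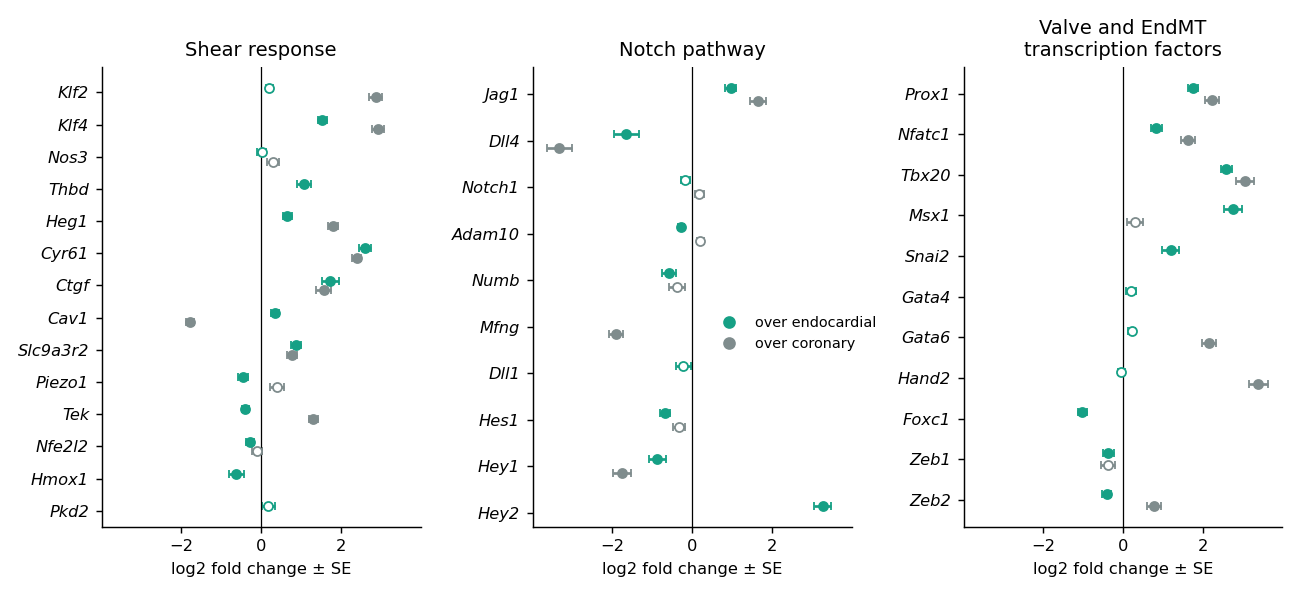
Log2 fold change with SE of valve endothelial cells over endocardial cells and over coronary endothelial cells, for the tested shear-response, Notch pathway and transcription factor genes (n = 15 libraries). Filled points passed an adjusted p of 0.05 and open points did not; Klf4 lies right of 0 in both comparisons and Hey2 reaches 3.27 over endocardial cells.

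Notch pathway genes also split, by ligand and by target. Of 23 listed genes 9 were tested against endocardial cells, and 2 were higher and 5 lower (median -0.29). Among all tested genes 16% were higher and 14.2% lower. The ligand gene Jag1 had 63.7, 107 and 192 CPM in valve endothelial cells, against 33, 57.4 and 102 CPM in endocardial cells. The ranges overlap, and within each of 15 libraries valve endothelial cells held more (0.97 ± 0.14, adjusted p = 5.52e-07). Gated on Hapln1 alone, the difference from endocardial cells was -0.0057 and did not pass. The ligand gene Dll4 was lower, with 18.9 ± 27.9 CPM in valve endothelial and 48.1 ± 16.1 CPM in endocardial cells (-1.65 ± 0.31, adjusted p = 6.37e-05), and Dll1 did not pass (-0.23 ± 0.18). The receptor gene Notch1 averaged 197 ± 64.5 CPM in valve endothelial and 224 ± 57.7 CPM in endocardial cells and did not pass (-0.17 ± 0.10, adjusted p = 0.233). Adam10, whose product cuts Notch receptors, and Numb, a Notch inhibitor, were lower (-0.29 ± 0.08 and -0.59 ± 0.17), and neither passed without the mesenchyme-rich cells or gated on Edn1 alone.

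Among the target genes, Hey2 had 35.1, 76.2 and 120.4 CPM in valve endothelial cells, against 1.73, 6.41 and 19.3 CPM in endocardial cells. Every library's valve endothelial cells lay above every library's endocardial cells (3.27 ± 0.21, adjusted p = 1.51e-14). Hey2 passed the filter on low counts in 8 of 11 other settings and was called in each of those. Its relative Hey1 averaged 32 ± 21.2 CPM in valve endothelial and 58 ± 17.2 CPM in endocardial cells (-0.87 ± 0.21, adjusted p = 0.00147), and Hes1 168 ± 86.7 CPM in valve endothelial and 277 ± 126 CPM in endocardial cells (-0.68 ± 0.12, adjusted p = 4.63e-05). Neither Hey1 nor Hes1 passed in the WT libraries alone, nor Hey1 with the valve side gated on Edn1 alone.

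The promoters of Hey2 and of Vcan, which encodes versican, are shown because both genes separate the 2 groups of cells and both windows hold TGGGAA, the core of the site bound by RBPJ, the DNA-binding partner of Notch. It was searched on both strands (TTCCCA on the other) in the 250 bases before the start, and matches are in capitals. Of 17 genes looked up, 13 had a RefSeq window (GRCm38.p6). Hey2 lies at chr10:30842784-30843033 and Vcan at chr13:89742513-89742762, both on the minus strand.
Hey2: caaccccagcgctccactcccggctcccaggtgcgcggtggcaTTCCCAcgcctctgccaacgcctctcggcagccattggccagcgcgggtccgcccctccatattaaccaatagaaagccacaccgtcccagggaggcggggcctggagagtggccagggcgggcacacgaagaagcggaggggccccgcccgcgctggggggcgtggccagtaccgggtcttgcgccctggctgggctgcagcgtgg
Vcan: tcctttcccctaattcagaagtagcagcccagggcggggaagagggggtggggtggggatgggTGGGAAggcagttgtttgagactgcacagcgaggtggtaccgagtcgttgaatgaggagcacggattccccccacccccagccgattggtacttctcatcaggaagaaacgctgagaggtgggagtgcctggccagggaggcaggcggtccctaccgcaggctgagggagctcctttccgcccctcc
The match begins 207 bases before the start in Hey2 and 187 in Vcan. The motif is in 21.6% of the 32851 windows of the same length, and it was found for 4 of the 13 genes. The others with it are Prox1 and Fbln5, each in 1 of 2 windows. It is not in the windows of Hapln1, Edn1, Jag1, Klf2, Klf4, Pthlh, Dkk2, Cyp26b1 and Bmp4. A match describes these letters only.

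**Figure D3:**
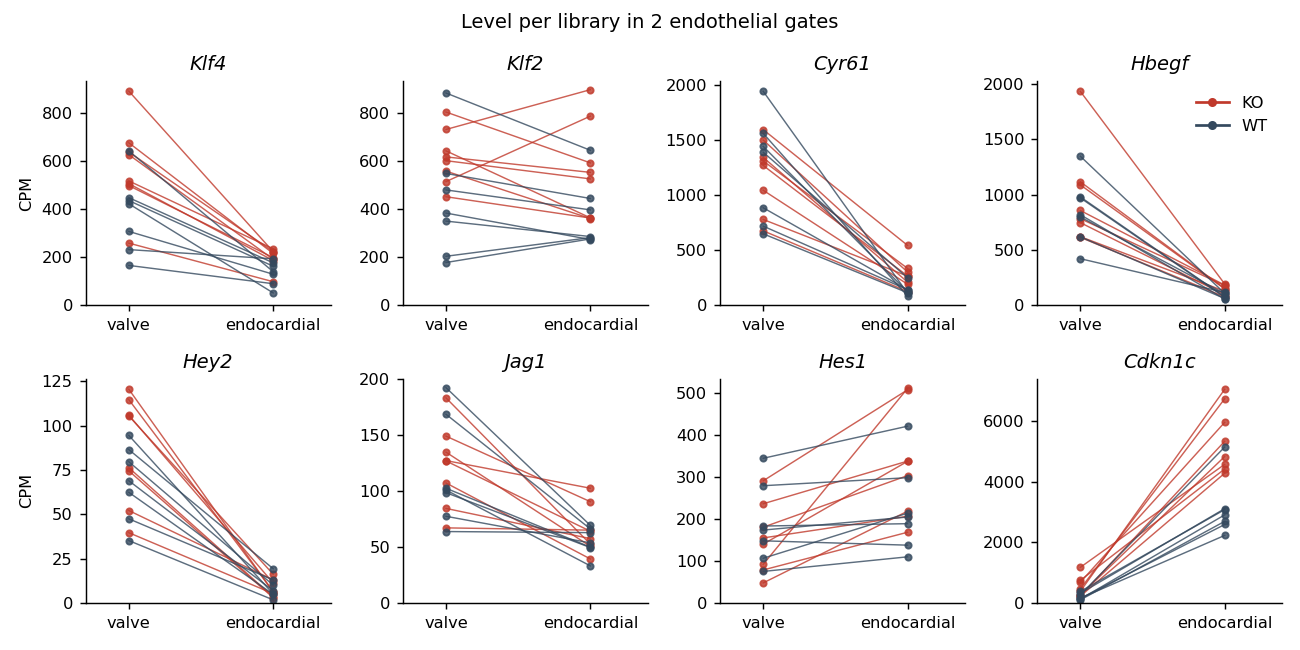
CPM of 8 genes in valve endothelial cells (left) and endocardial cells (right) of each library, joined by a line and coloured by genotype. Klf4, Cyr61, Hbegf, Hey2 and Jag1 are higher and Cdkn1c lower in valve endothelial cells of every library, while lines run both ways for Klf2 and Hes1.

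Of 22 transcription factors of valve formation and EndMT 11 were tested. Of these 5 were higher and 3 lower (median 0.21), beside 16% and 14.2% of all tested genes. Prox1, a homeobox factor of lymphatic and valve endothelium, had 119, 216 and 365 CPM in valve endothelial cells, against 38.6, 60.7 and 119 CPM in endocardial cells, and was higher in 15 of 15 libraries (1.75 ± 0.12, adjusted p = 4.14e-14). Tbx20, a cardiac T-box factor, averaged 305 ± 139 CPM in valve endothelial and 51.8 ± 24.8 CPM in endocardial cells (2.59 ± 0.14), and Msx1, a BMP target, 74.9 ± 37 CPM in valve endothelial and 11.1 ± 7.32 CPM in endocardial cells (2.75 ± 0.21). The EndMT factor gene Snai2 (1.19 ± 0.21) and Nfatc1, whose product is needed for valve growth (0.83 ± 0.13), were also higher. Foxc1 was lower in 15 of 15 libraries (-1.02 ± 0.10). The repressor genes Zeb1 (-0.37 ± 0.13) and Zeb2 (-0.41 ± 0.11) were lower too. Zeb1 did not pass without KO replicate 1, 7 or 8, without library as a block, gated on Hapln1 alone or in WT libraries alone. Zeb2 did not pass gated on Edn1 alone or in the libraries of either genotype alone, and Nfatc1 did not pass gated on Edn1 alone. Gata4, Gata6 and Hand2 did not pass (0.20 ± 0.13, 0.21 ± 0.10 and -0.044 ± 0.083).

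Vcan and Hbegf, an EGF receptor ligand gene that restrains valve mesenchyme growth, stood far above their endocardial levels. Vcan had 511, 986 and 1559 CPM in valve endothelial cells, against 57.9, 111 and 187 CPM in endocardial cells (3.15 ± 0.11). Hbegf had 421, 818 and 1934 CPM in valve endothelial cells, against 55.8, 107 and 192 CPM in endocardial cells (2.97 ± 0.12). Neither gene's groups overlapped, and without the mesenchyme-rich cells the differences were 3.25 and 3.5. The mesenchyme matrix gene Postn (periostin) averaged 1601 ± 425 CPM in valve endothelial and 579 ± 84.3 CPM in endocardial cells (1.45 ± 0.078), but its sign turned without the mesenchyme-rich cells (-0.42). Its own UMIs count toward calling a cell mesenchyme-rich, so this turn cannot be read apart from that rule. Adamts1, which cuts versican, was lower (-0.46 ± 0.091). Ece1, which releases endothelin 1 from its precursor, averaged 900.4 ± 233 CPM in valve endothelial and 1499.5 ± 369 CPM in endocardial cells and was lower in 15 of 15 libraries (-0.74 ± 0.061).

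Junction and adhesion genes were mostly lower, 10 of 16 tested against 4 higher (median -0.37). The counts of this and the next lists stand beside 16% higher and 14.2% lower over all 5421 tested genes. Nrp1, a semaphorin and VEGF co-receptor gene, averaged 464 ± 112 CPM in valve endothelial and 893 ± 186 CPM in endocardial cells (-0.95 ± 0.076), whereas Cd34 was higher (0.90 ± 0.10). Of 11 basement membrane genes 6 were lower and 0 higher (median -0.43), with Col4a1 at -1.26 ± 0.10. Of 8 Wnt pathway genes Dkk2, Dkk3 (2.75 ± 0.21) and Wnt4 (2.92 ± 0.17) were higher and 2 lower. Of 16 BMP and TGF-beta genes 5 were higher and 3 lower, among them Id2 (-0.97 ± 0.10). Immediate early genes were higher in 11 of 15 cases and lower in 0 (median 0.5), with Atf3 at 1165 ± 561 CPM in valve endothelial and 455 ± 162 CPM in endocardial cells (1.30 ± 0.12). Of 18 mitosis genes 9 were higher and 0 lower (median 0.43), while of 19 DNA replication genes 1 was higher and 2 lower. All 7 tested valve interstitial markers were higher (median 1.45). The lymphatic marker Lyve1 was lower (-2.08 ± 0.33).

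Against coronary endothelial cells, 748 of 3446 tested genes were higher in valve endothelial cells (21.7%) and 767 lower (22.3%). In all 15 libraries 210 genes (6.09%) were on the higher side and 264 (7.66%) on the lower. The higher genes named by size included matrix genes. Vcan averaged 999 ± 326 CPM in valve endothelial and 66.7 ± 66.6 CPM in coronary endothelial cells (4.05 ± 0.19), Postn 1601 ± 425 CPM in valve endothelial and 101 ± 72.9 CPM in coronary endothelial cells (4.03 ± 0.19) and Olfml2a 141 ± 53.3 CPM in valve endothelial and 5.26 ± 6.06 CPM in coronary endothelial cells (4.48 ± 0.25). The others were Cytl1 (4.45 ± 0.34), Dpt (4.24 ± 0.30), Ccdc141 (4.13 ± 0.25), Spon1 (3.92 ± 0.23), Lum (3.81 ± 0.22), Angptl2 (3.76 ± 0.25), Pdgfra (3.74 ± 0.28), Ass1 (3.67 ± 0.26) and Tmem108 (3.67 ± 0.23). Of the higher genes Vcan, Postn, Dpt, Lum and Pdgfra are interstitial or fibroblast markers. Mesenchyme-rich cells made up 40.9% of valve endothelial and 5.13% of coronary endothelial cells. In the fit without them 964 of 2147 tested genes passed, Vcan and Postn among them. Postn and Lum help to define these cells, and the part of these cells in the differences was not tested further. Dpt passed the filter on low counts in 6 of 11 other settings and was called in each of those. Among the lower genes, Gpihbp1, which anchors lipoprotein lipase on capillaries, averaged 4.97 ± 10.4 CPM in valve endothelial and 340.4 ± 139 CPM in coronary endothelial cells (-5.85 ± 0.26). Btnl9 averaged 0.416 ± 1.61 CPM in valve endothelial and 291 ± 114 CPM in coronary endothelial cells, too near 0 in valve endothelial cells for a fold change. Igfbp3, an IGF-binding protein gene, averaged 24.3 ± 18.8 CPM in valve endothelial and 626 ± 369 CPM in coronary endothelial cells (-4.73 ± 0.19). Lower too, by the same rule, were Tmem255a, Clec1a, Rgcc, Col15a1, Samsn1, N4bp3, Pcdh17, Kcne3 and Robo4, from -5.93 ± 0.25 in Tmem255a to -3.81 ± 0.26 in Robo4.

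Shear-response genes stood higher against coronary endothelial cells, 7 of 11 tested, with 1 lower (median 1.30, against -0.018 over all tested genes). Over all genes tested against coronary endothelial cells 21.7% were higher and 22.3% lower. Klf2 averaged 530.0 ± 200.1 CPM in valve endothelial and 82 ± 58.7 CPM in coronary endothelial cells (2.86 ± 0.16, adjusted p = 1.65e-15) and Klf4 485 ± 195 CPM in valve endothelial and 63.7 ± 33.1 CPM in coronary endothelial cells (2.92 ± 0.15, adjusted p = 1.38e-16), each higher in 15 of 15 libraries. Cav1 was the lower gene (-1.79 ± 0.11). Of 8 Notch genes Jag1 was higher (1.65 ± 0.19) and Dll4 (-3.33 ± 0.31), Hey1 (-1.76 ± 0.22) and the glycosyltransferase gene Mfng (-1.91 ± 0.17) were lower. Of 8 valve transcription factors 6 were higher and 0 lower, Hand2 by 3.39 ± 0.24 and Gata6 by 2.15 ± 0.18. Ece1 was higher (1.5 ± 0.10), with the opposite sign to its difference from endocardial cells. Of 17 mitosis genes 10 were lower and 0 higher (median -0.49).

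Within the valve endothelial cells, those with more Edn1 and those with more Hapln1 differed in genes that the rule did not use. Of the genes higher than in endocardial cells, Prox1, Tbx20 and Hbegf were lower on the Edn1 side, while Fbln5 and Bmp4 were higher there. The name valve endothelial comes from the gate rule, and whether it holds for both sides was not tested. Sums were compared in 14 libraries, since WT replicate 2 had only 9 Edn1-side cells. Of 1374 tested genes 121 were higher on the Edn1 side (8.81%) and 103 lower (7.5%). Fbln5 had 421, 1758 and 4321 CPM as lowest, median and highest value on the Edn1 side, against 0, 75.8 and 314 CPM on the Hapln1 side (4.12 ± 0.24, adjusted p = 5.51e-13). Tm4sf1, an endothelial membrane protein gene, had 718, 1970.2 and 3030.0 CPM on the Edn1 side, against 101, 233 and 418 CPM on the Hapln1 side (2.99 ± 0.16). Within every one of the 14 libraries both genes and the next 9 were higher on the Edn1 side, as were 29 genes in all (2.11%), against 12 lower in every library (0.873%). The 9 were Bmp4 (2.65 ± 0.24), Myct1 (2.40 ± 0.23), Fbln2 (2.34 ± 0.20), the endothelial lectin gene Clec14a (2.04 ± 0.26), Cav1 (1.76 ± 0.18), Nrp1 (1.73 ± 0.16), the connexin 37 gene Gja4 (1.65 ± 0.21), Cdkn1c (1.64 ± 0.19) and the calcification inhibitor gene Mgp (1.54 ± 0.18). With 1 library left out, Bmp4 passed the filter on low counts in 1 of 14 fits, Myct1 in 3 and Gja4 in 11, and they were called in each of those.

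Among genes with the same direction in all 14 libraries, Ccdc141 differed most toward the Hapln1 side, with 0, 50.7 and 416 CPM on the Edn1 side against 263, 398 and 872 CPM on the Hapln1 side (-2.28 ± 0.27). Socs2, an inhibitor of cytokine signalling (-1.30 ± 0.23), Tcf12 (-1.26 ± 0.18), Slc9a3r2 (-1.25 ± 0.21) and Cd9 (-1.03 ± 0.18) were lower on the Edn1 side, as were Calm2, Vgll4, Rap1a, Tuba1b, Clic1, Atpif1 and Uqcr11, from -0.95 ± 0.10 in Calm2 to -0.36 ± 0.11 in Uqcr11. Uqcr11 did not pass without KO replicate 3, 7 or 8 or WT replicate 4 or 5. The valve factor genes Tbx20 (-0.85 ± 0.22), Prox1 (146 ± 82.1 CPM in Edn1-side and 280.3 ± 128 CPM in Hapln1-side cells, -0.93 ± 0.29) and Hand2 (-0.51 ± 0.16) were lower on the Edn1 side. Prox1 did not pass without KO replicate 1, 4, 7 or 8 or WT replicate 4, nor Hand2 without KO replicate 1, 4 or 7 or WT replicate 1, 3 or 7. Hbegf averaged 398 ± 262 CPM in Edn1-side and 1152 ± 581 CPM in Hapln1-side cells (-1.5 ± 0.25). The mesenchyme genes Lum (-2.30 ± 0.40) and Postn (-1.29 ± 0.20) were lower on the Edn1 side, and Postn did not pass without the mesenchyme-rich cells. Both genes are among those that define the mesenchyme-rich cells. The interstitial marker sum was 2442 to 9653 CPM on the Edn1 side and 3201 to 11947 CPM on the Hapln1 side, and its part in these differences was not tested.

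Klf2 and Klf4 did not pass between the sides (0.075 ± 0.17 and 0.023 ± 0.17). The list counts that follow stand beside 8.81% higher and 7.5% lower over all 1374 tested genes. Of 8 tested shear genes Cyr61 (0.67 ± 0.17), Cav1 and Tek (0.77 ± 0.13) were higher on the Edn1 side and Slc9a3r2 lower, and Cyr61 and Tek did not pass without the mesenchyme-rich cells. Of 3 tested Notch genes Adam10 was higher (0.46 ± 0.16), a call that was absent in 7 of 14 fits with 1 library left out. Junction and adhesion genes were higher on the Edn1 side in 7 of 10 cases and lower in 0 (median 0.90), with Cd34 at 1.30 ± 0.17. Of 15 immediate early genes 8 were higher and 0 lower (median 0.54). All 7 tested mitosis genes were lower on the Edn1 side (median -0.99), Top2a by -1.22 ± 0.21.

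**Figure D4:**
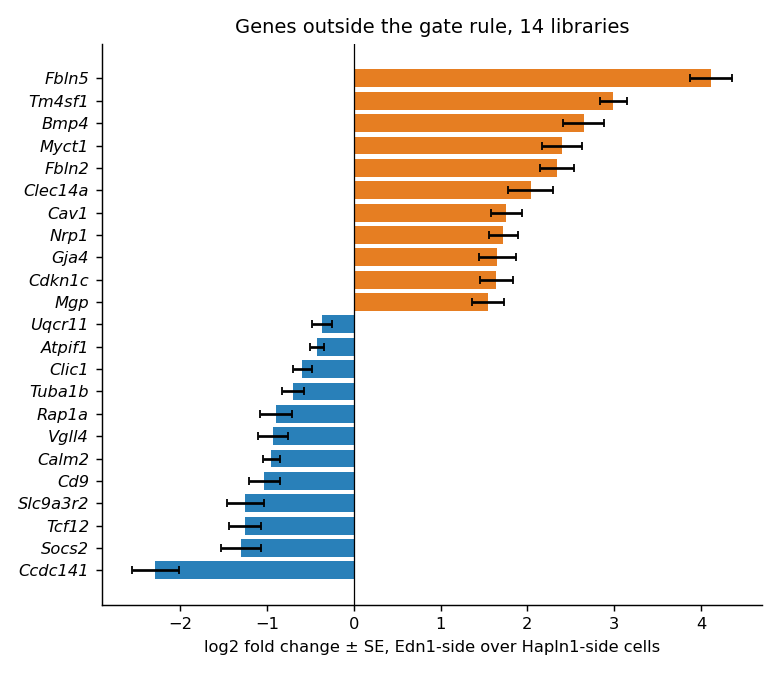
Log2 fold change with SE of cells with more Edn1 over cells with more Hapln1 UMIs, for 11 higher and 12 lower genes among those with the largest difference that went the same way in 14 of 14 libraries. Fbln5 reaches 4.12 and Ccdc141 -2.28.

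Between genotypes, the targeted gene was read first. In valve endothelial cells Adamts19 had 1, 0, 1, 0, 2, 1, 1 and 1 UMIs in KO replicates 1 to 8, and 6, 3, 9, 2, 5, 1 and 2 UMIs in WT replicates 1 to 7. Pooled, this is 5.56 CPM in KO and 28.2 CPM in WT cells, and the libraries overlap. A tag from the part of the gene that is not deleted would still be counted. LacZ, the reporter, had 15 UMIs in KO cells (11.9 CPM, in 7 of 8 libraries) and 0 in WT cells, where a count of 0 allows up to 3.02 CPM. In endocardial cells Adamts19 had 0 UMIs in KO (a count of 0 leaves room for 0.455 CPM) and 29 UMIs in WT (5.31 CPM).

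The share of valve endothelial cells did not differ beyond the spread between libraries. As a percent of kept cells it was 1.43% ± 0.217 in KO and 1.38% ± 0.402 in WT libraries (SD, n = 8 and n = 7), a difference of 0.0482 percentage points (exact permutation test, both sides, p = 0.774). With every cell thinned to 1000 UMIs, which left out 10203 KO and 6603 WT cells as too shallow, it was 0.904% ± 0.230 in KO and 0.680% ± 0.347 in WT libraries (exact permutation p = 0.158).

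Of 3468 genes tested between KO and WT valve endothelial cells 3 passed, all lower in KO (0.0865%), and 332 had an unadjusted p under 0.05. Gm10076, a lincRNA gene on chromosome 14 (105681828 to 105682211, plus strand, GRCm38), had 37.2, 66.6 and 104 CPM as lowest, median and highest value in KO libraries, against 87.3, 163 and 427 CPM in WT libraries. The groups overlap, with WT replicate 4 far above the rest (-1.64 ± 0.29, adjusted p = 0.0204). Of the 50-base words near the 3′ end of its transcript 69.9% also occur in 4 other genes, so its count is uncertain. Gm1673, a protein-coding gene on chromosome 5 (33983433 to 33985013, plus strand), had 60.5, 113 and 137 CPM in KO libraries, against 175, 197 and 279 CPM in WT libraries. These groups did not overlap, which held for 2 genes in that direction (0.0577%), and the difference was -1.0 ± 0.19 (adjusted p = 0.0234). Cox5a, a subunit gene of cytochrome c oxidase on chromosome 9 (57521274 to 57532426, plus strand), had 177, 212 and 279 CPM in KO libraries, against 249.7, 423 and 559 CPM in WT libraries, with an overlap at the edge (-0.96 ± 0.18, adjusted p = 0.0204). Tmem64 (191 ± 39.4 CPM in KO and 81 ± 45.5 CPM in WT, adjusted p = 0.119) and 2410015M20Rik (169 ± 22.2 CPM in KO and 271 ± 45 CPM in WT, adjusted p = 0.119) came next and did not pass.

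With flow cell as a covariate, the genotype difference rests on WT replicate 5 alone against the 8 KO libraries. Such a fit cannot decide which genes pass, so only effect sizes are given. The 3 genes then stood at -1.76 (Gm10076), -0.77 (Gm1673) and -0.60 (Cox5a). On the shared flow cell WT replicate 5 had 225 CPM of Gm10076, 183 CPM of Gm1673 and 330.2 CPM of Cox5a, each above all 8 KO libraries. This library is among those that gave the 3 calls, so its place is no separate support. How many of all tested genes had WT replicate 5 above all KO libraries was not counted. In fits without that covariate, leaving out KO replicate 7 or 8, or WT replicate 4 or 6, gave 0 genes that passed. Leaving out KO replicate 1 gave 7 genes and KO replicate 2 gave 2, while leaving out WT replicate 2 gave 5 and WT replicate 7 gave 1. Libraries of 1 litter are not independent of each other. With counts summed over the 3 KO and 4 WT litters 2 genes passed, of which Gm10076 was 1 (-1.61, edgeR adjusted p = 0.0226). Gm1673 (-1.05) and Cox5a (-0.96) then did not pass, each with an adjusted p of 0.404. Against WT replicates 5 to 7 alone 32 genes passed, the 3 among them. The 14 cardiomyocyte markers, none at 0, summed to 1482 to 3526 CPM in KO and 2244 to 4321 CPM in WT valve endothelial cells, with 0 of 13 tested called (median -0.74). The 9 erythroid markers, none at 0, summed to 751 to 3613 CPM in KO and 807 to 29932 CPM in WT cells. The part of either list in the 3 calls was not tested.

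**Figure D5:**
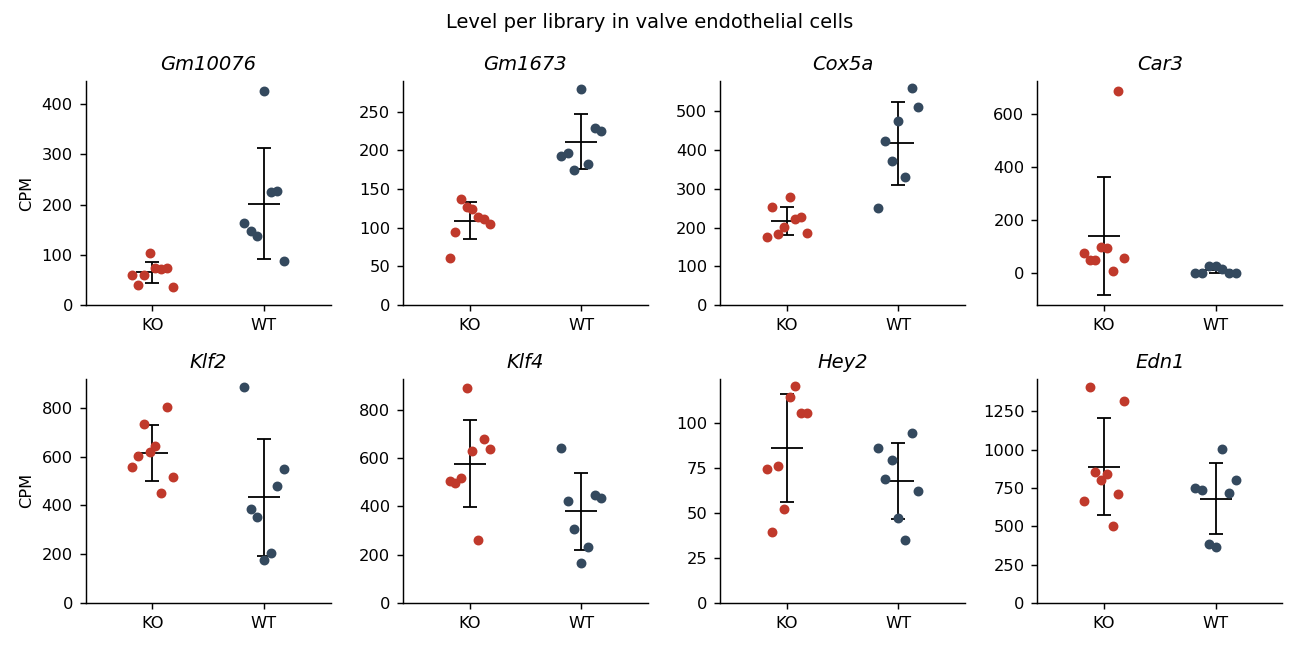
CPM of 8 genes in the valve endothelial cells of each library, KO left and WT right, with mean and SD. Gm1673 separates the genotypes, Gm10076 and Cox5a overlap at the edge, 1 KO library reaches 688 CPM of Car3, and Klf2, Klf4, Hey2 and Edn1 overlap over most of their range.

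No shear or Notch gene passed between genotypes. Of 12 tested shear genes 10 had a positive log2 fold change (median 0.16, against -0.0098 over all tested genes). Klf2 had 452, 609.6 and 804 CPM in KO libraries, against 178, 384 and 883 CPM in WT libraries (0.5 ± 0.24, adjusted p = 0.520). Klf4 had 259, 573 and 893 CPM in KO libraries, against 166, 423 and 643 CPM in WT libraries (0.61 ± 0.24, adjusted p = 0.455). For both genes the KO and WT libraries overlap widely. Cyr61 averaged 1187 ± 329 CPM in KO and 1225 ± 483 CPM in WT libraries (-0.054 ± 0.22). Of 6 tested Notch genes 3 were positive (median 0.016), with Notch1 at -0.19 ± 0.23, Jag1 at 0.064 ± 0.25, Hey2 at 0.38 ± 0.27 and Hes1 at -0.28 ± 0.32.

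The gate genes were also set between genotypes, since the rule did not use genotype. It kept only cells with at least 2 UMIs of Hapln1 and Edn1 together, which holds up their level in the kept cells. Tests on these levels therefore cannot decide whether genotype changes either gene. Hapln1 averaged 971 ± 182 CPM in KO and 999 ± 198 CPM in WT libraries (-0.057 ± 0.16, adjusted p = 0.948). Edn1 averaged 887 ± 315 CPM in KO and 679 ± 231 CPM in WT libraries (0.37 ± 0.23, adjusted p = 0.634). Vcan, Hbegf, Prox1 and Ece1 did not pass (0.29 ± 0.21, 0.18 ± 0.24, 0.093 ± 0.21 and 0.42 ± 0.17). Of 23 nuclear-encoded respiratory chain genes Cox5a passed, and 2 were positive (median -0.18). Of 17 mitosis genes 0 passed and 2 were positive (median -0.35).

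Whether the genotype difference was another in valve endothelial than in endocardial cells was tested as an interaction. Of 6467 genes 1 passed (0.0155%), Car3, which encodes carbonic anhydrase III, and 333 had an unadjusted p under 0.05. In valve endothelial cells Car3 had 16, 6, 3, 13, 19, 1, 130 and 9 UMIs in KO replicates 1 to 8, and 0, 0, 5, 4, 2, 0 and 0 in WT replicates 1 to 7. In endocardial cells it had 0, 0 and 2.40 CPM as lowest, median and highest value in KO libraries, against 0, 3.45 and 38.9 CPM in WT libraries. The genotype difference was larger in valve endothelial cells by 6.67 ± 0.92 on the log2 scale (adjusted p = 1.53e-04), a fitted value that leans on libraries at 0 and sets no bound. Few cells carried it. The highest library, KO replicate 7, held 130 UMIs in 4 cells, 83 of them in 1 cell. The call was made in 15 of 15 fits with 1 library left out, and not against WT replicates 5 to 7 alone. Without WT replicate 4 the count of genes was 7. Hspb1 (-2.17 ± 0.5), Cyr61 (-0.96 ± 0.23), Cped1 (3.52 ± 0.91) and Atf3 (-0.75 ± 0.20) followed and did not pass.

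Between the alleles, 4 of 3465 genes passed, all lower in tm4b (0.115%), and 474 had an unadjusted p under 0.05. Rps18, a ribosomal protein gene, had 722, 686, 698 and 725 CPM in the tm4b libraries, against 1219, 1077, 1311 and 1242 CPM in the tm4a libraries (-0.79 ± 0.14, adjusted p = 0.0331). Nupr1 had 34.9, 108, 84.7 and 93 CPM in the tm4b libraries, against 344, 182, 152 and 558 CPM in the tm4a libraries (-2.04 ± 0.38, adjusted p = 0.0413). For Rps18 and Nupr1 every tm4b library was below every tm4a library. How many of all 3465 tested genes separated in this way was not counted. The separation is therefore given as a description of these values only. Eif1, a translation initiation factor gene, averaged 643 ± 140.3 CPM in tm4b and 1288 ± 186 CPM in tm4a libraries (-1.01 ± 0.18), and Tmsb10, an actin-binding thymosin gene, 1114 ± 141 CPM in tm4b and 2059 ± 291 CPM in tm4a libraries (-0.89 ± 0.15). Words of 50 bases near the 3′ ends of Rps18, Eif1 and Tmsb10 recur in other genes (31.8%, 27.6% and 46.9%), so their counts are uncertain. Without KO replicate 1, 2, 3, 5 or 7 the count was 0, without KO replicate 4 or 8 it was 1, and without KO replicate 6 it was 7. The alleles come from different litters on 1 flow cell, so allele and litter cannot be told apart. No shear, Notch or endothelin gene passed between the alleles.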

How the data were processed

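Drop-seq UMI counts of polyadenylated RNA were analysed in 15 libraries. The authors deposited unnormalized counts, 1 whole number for each gene in each barcode. The submitters' processing notes name Seurat 2.1, bcl2fastq 2.17 and mm10. The counting tool and its use of strand were not given in the sources used here. Every deposited barcode had at least 251 genes. The cells and gene lists were chosen with earlier results of these data known.

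UMIs were summed per library over the gated cells and tested with edgeR 4.0.16 (R 4.3.3; TMM factors, filterByExpr, quasi-likelihood test, Benjamini-Hochberg threshold 0.05). Comparisons between groups of cells had library as a block and leave gate genes out. Fold changes are log2 with SE. Levels are CPM from plain sums, as mean ± SD over libraries. Libraries with under 10 cells of a group were left out. Shares were compared by exact permutation. Limits from a count of 0 (3 counts) cover counting error only. Nothing says that each library is a separate embryo, and litters hold several libraries, so p-values measure the spread between libraries. Between groups of cells, the 12 genes per direction with the largest change were named among those that passed, had at least 50 CPM and went the same way in every library. Between genotypes or alleles every gene that passed was named, or the 5 with the lowest p where fewer passed, and beside these the tested genes of the shear, Notch, transcription factor and endothelin lists. Genes named from other lists are marker genes or among the 4 of their list with the highest level in valve endothelial cells. A few genes are not reported here. The scripts were tested on simulated data. Alternatives were DESeq2 1.42.0, RLE factors, no filter, other gate limits, leaving out mesenchyme-rich cells or the top 5% of doublet scores (Scrublet in scanpy 1.11.5), flow cell, litter, a replicate block and leaving out each library.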

Additional observations from a re-analysis of the deposited data

Results flagged for a closer look

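Gm10076 stood out in WT replicate 4, whose valve endothelial cells held 427 CPM, far from the other WT libraries. Car3 stood out in KO replicate 7, with 688 CPM where the median KO library held 65.1 CPM. Of 30 sets of library values examined for a sample far from the rest these 2 were found, where chance gives about 1 in 20. The Car3 genotype difference in valve endothelial minus that in endocardial cells was 6.67 on the log2 scale and passed the interaction test. Few cells carried it, with 83 of the 130 UMIs of KO replicate 7 in 1 cell. Against WT replicates 5 to 7 alone it was not called.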

How the results depend on the processing

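Against endocardial cells 1638 genes passed, against 2787 with no filter on low counts, 728 with the valve side gated on Edn1 alone, 1040 without mesenchyme-rich cells, 961 in WT and 1079 in KO libraries alone, and 1478 to 1705 with 1 library left out. With no filter the split was 1068 higher and 1719 lower, and all fold changes shifted by a median of -0.13. Against coronary endothelial cells the counts were 1515, 3157 with no filter, 667 on Edn1 alone, 964 without mesenchyme-rich cells, 692 in WT libraries alone and 1424 to 1568 with 1 library left out. Between the Edn1 and Hapln1 sides they were 224, 653 with no filter, 109 without mesenchyme-rich cells and 164 to 208 with 1 library left out. The numbers of genes tested differ between these settings. Without library as a replicate block these 3 counts were 1219, 1226 and 172. Between KO and WT the count of 3 was 6 by DESeq2, 54 with no filter and 2 summed per litter. It was 0 with the replicate number as a block, 32 against WT replicates 5 to 7 and 1 without mesenchyme-rich cells. It was 5 without the top 5% of doublet scores and 0 to 7 with 1 library left out. The count of 0 under the replicate block stood beside 220 genes at an unadjusted edgeR p under 0.05. With flow cell as a covariate no count is given, since the genotype difference then rests on 1 WT library. DESeq2 was not run with either term. Same-numbered KO and WT libraries did not deviate together (correlations -0.194 to 0.0858), so the numbers pair nothing. The interaction count of 1 was 11 with no filter, 4 against WT replicates 5 to 7 and 1 to 7 with 1 library left out. Between the alleles the count of 4 was 11 by DESeq2, 45 with no filter and 0 to 7 with 1 library left out. The difference in share turned to -0.0463 percentage points with at least 3 UMIs, to -0.188 against WT replicates 5 to 7 and to -0.0134 without WT replicate 1, ran from -0.0678 to 0.129 with 1 library left out, and was 0.0416 under the replicate block. Against endocardial cells Cav1 (-0.47) and Jag1 (-0.0057) turned with Hapln1 alone, Tek (0.035) with Edn1 alone and Postn (-0.42) without mesenchyme-rich cells. Postn itself helps to define the mesenchyme-rich cells. No cause was tested. Genes under about 50 CPM rest on few UMIs per library.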

Other observations

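In valve endothelial cells 4 of 3468 tested genes (0.115%) had every KO library above every WT library, and none of the 4 passed edgeR's test. The 3 given here were chosen after their values were seen, and each is given by its lowest, median and highest library. Usp15, a deubiquitinase gene, had 108, 134 and 214 CPM in KO libraries, against 57.6, 78.7 and 95.5 CPM in WT libraries (0.84 ± 0.21, adjusted p = 0.182). Wls, the Wnt export receptor gene, had 253, 292 and 323 CPM in KO libraries, against 48, 207 and 252 CPM in WT libraries (0.57 ± 0.21, adjusted p = 0.402). For Wls the groups all but touch. Hnrnpc, an RNA-binding protein gene, had 947, 1008 and 1037 CPM in KO libraries, against 586, 769 and 873 CPM in WT libraries (0.40 ± 0.13, adjusted p = 0.319).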
